A study of Mus musculus with 9 samples.

Results

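Patrolling monocytes are the Ly6C-low monocytes of mouse blood, and the 8 genes described here, Cx3cr1, Nr4a1, Treml4, Ace, Cd36, Spn, Adgre4 and Eno3, are transcripts by which these cells are told from the Ly6C-high, classical monocytes. They were picked by symbol from the 20926 genes listed for 9 libraries of mouse blood RNA. All 8 were listed and all 8 were among the 12366 genes that passed the filter on low values, a mean of at least 0.1 in rescaled FPKM (mapped fragments scaled by transcript length and library total, then divided by 1 factor per library). In all 3 groups the mice were male DBA/1 mice labelled as 7 weeks old, with 3 libraries per group. Each library was taken as 1 mouse, since the sources used here describe no pooling, although they do not state the number. That is the age at which they were divided into groups, before immunisation, and they were older when blood was taken. The Ctrl mice had no arthritis and were not irradiated. The CIA mice had collagen-induced arthritis, raised with type II collagen in Freund's adjuvant, and were not irradiated. In the CIA+THz mice, which shared this arthritis, a swollen ankle was exposed to 0.1 THz radiation for 30 min per day over 14 days under isoflurane. Anaesthesia of the other mice is not given in the sources used here, so that radiation and isoflurane cannot be told apart.

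Patrolling monocytes crawl along the inner wall of blood vessels and clear debris from it. They arise from classical monocytes, a step that depends on the nuclear receptor Nr4a1, and their survival is supported by the fractalkine receptor Cx3cr1. In arthritis both monocyte subsets are studied as sources of joint macrophages.

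The labels call the samples blood leukocyte and their RNA total blood RNA, with no sort of monocytes, so that fewer patrolling monocytes and less RNA per cell cannot be told apart. Csf1r, the gene of a receptor that monocytes carry, lay between 88.3 and 204 rescaled FPKM. Markers of T cells (Cd3e, 25.3 to 38.3), neutrophils (S100a8, 975 to 2167) and platelets (Pf4, 727 to 1380) were present in all 9 libraries. Alas2, an enzyme of red cell precursors, alone took 11.4% to 16.7% of the summed FPKM. The depth behind the FPKM is unknown in absolute terms. It was estimated relative to Ctrl replicate 3, from the most common ratio of a library to that one among genes of low FPKM. This ratio rested on 24 to 41 genes per library, of 263 to 469 used, so the estimate is rough. The estimate was between 0.91 and 1 in Ctrl and between 0.919 and 1.16 in CIA. It was highest in the CIA+THz libraries, between 1.23 and 1.7. Before rescaling, CIA+THz lay 0.28 higher against CIA on a log2 scale than after it.

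All 8 genes have a promoter in the RefSeq table of GRCm38.p6. Their 250 bases before the start were searched on both strands for TGCGTCA, a cyclic AMP response element-like motif, for GAGGAA, a core of sites for the myeloid factor PU.1, for AAAGGTCA, to which Nr4a1 itself can bind, and for CCACACCC, a site of Krüppel-like factors. No match of these 4 motifs overlapped another in the sequences shown. TGCGTCA was found in 1 of the 8 genes, Nr4a1, in 4 copies, against 1.75% of all 32851 promoters with at least 1 copy, and no other promoter held 4. This motif was chosen after the Nr4a1 promoter had been read, so that its count there is a description. GAGGAA was found in Ace and Treml4, against 23.3% of all promoters, while AAAGGTCA (1.34% of all) and CCACACCC (3.2% of all) were found in none of the 8. The promoters of Nr4a1 and Ace are shown because these genes held matches and passed the criterion below in 2 comparisons each. Capitals mark the matches. The Nr4a1 sequence is chr15:101266596-101266845 on the + strand and the Ace sequence chr11:105967698-105967947 on the + strand. GENCODE M21 has no exon in the first, which lies inside the span of a longer Nr4a1 transcript, and places the last 3 bases of the second in the first exon of Ace.
Nr4a1: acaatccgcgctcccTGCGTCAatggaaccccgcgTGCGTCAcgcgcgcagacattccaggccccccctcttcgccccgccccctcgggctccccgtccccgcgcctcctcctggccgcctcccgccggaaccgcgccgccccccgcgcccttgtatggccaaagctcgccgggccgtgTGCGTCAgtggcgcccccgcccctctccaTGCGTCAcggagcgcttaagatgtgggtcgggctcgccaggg
Ace: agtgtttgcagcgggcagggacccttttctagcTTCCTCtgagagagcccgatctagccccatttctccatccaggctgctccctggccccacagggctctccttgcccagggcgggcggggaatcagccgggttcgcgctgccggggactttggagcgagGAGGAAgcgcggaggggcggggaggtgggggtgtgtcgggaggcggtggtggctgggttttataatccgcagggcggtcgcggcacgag

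The copies in Nr4a1 began 235, 215, 71 and 42 bases before the start. Those in Ace began 217 and 89 bases before it, the first of them on the other strand.

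The question was how the transcripts of patrolling monocytes stood in the blood of arthritic and of irradiated arthritic mice. Against Ctrl, 5 of the 8 genes were higher in CIA+THz by the criterion for pairs of groups, which asked for an absolute log2 fold change above 0.67 and for p below 0.05 without adjustment in limma. They were Cx3cr1, Nr4a1, Ace, Adgre4 and Eno3. Only Nr4a1 passed it in CIA against Ctrl, and only Ace in CIA+THz against CIA. None of the 8 had a Benjamini-Hochberg adjusted p under 0.05 over all genes tested in any comparison, while an unadjusted p below 0.05 was found for 1 of them between CIA and Ctrl (17.3% of all genes), for 3 between CIA+THz and CIA (13.2%), and for 5 between CIA+THz and Ctrl (18.1%).

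**Figure D1:**
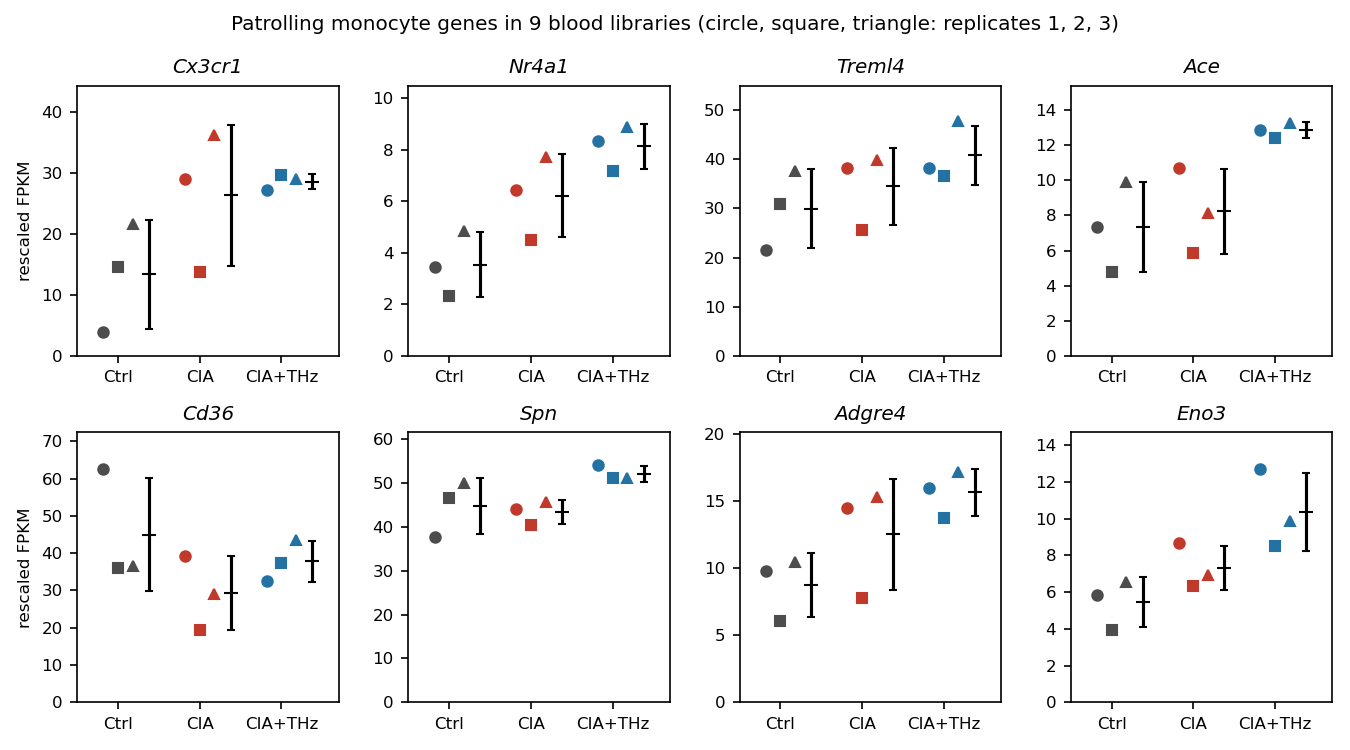
Rescaled FPKM of the 8 genes in each of the 9 libraries, by group, with circles, squares and triangles for replicates 1, 2 and 3 and a black bar for the mean ± SD (n = 3). The square of CIA, replicate 2, is the lowest CIA library in all 8 panels, and the 3 CIA+THz points of Ace lie above all others.

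Cx3cr1 (chromosome 9, 119901616 to 120069879, minus strand of GRCm38) encodes the receptor for fractalkine, a membrane-bound chemokine. Its rescaled FPKM was 3.86, 14.5 and 21.7 in Ctrl replicates 1, 2 and 3, 29.0, 13.7 and 36.3 in CIA, and 27.2, 29.6 and 29.0 in the CIA+THz libraries. Ctrl replicate 1 lay far below the other libraries, CIA replicate 2 fell among the controls, and the 3 CIA+THz libraries were close together and above every Ctrl library. CIA+THz was higher than Ctrl by 1.41 on the log2 scale (SE 0.56, limma adjusted p = 0.247), and by 0.68 without Ctrl replicate 1, still past the criterion. CIA against Ctrl differed by 1.18 with an SE of 0.65, which did not pass the test (limma adjusted p = 0.391), and by 0.45 without Ctrl replicate 1. CIA+THz against CIA differed by 0.23 (SE 0.33, limma adjusted p = 0.799), and without CIA replicate 2 the sign turned, to -0.18.

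NK cells also carry Cx3cr1. The 8 NK cell markers summed to 155 to 204 rescaled FPKM in Ctrl, 63.2 to 140 in CIA and 104 to 163 in the CIA+THz libraries, so that every CIA library lay below every Ctrl library. Their part in the Cx3cr1 values was not tested. An exon of Gm33858, on the opposite strand, overlaps Cx3cr1 in the annotation, and since the strand used in counting is not given, reads of both cannot be told apart.

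Nr4a1 (chromosome 15, 101254269 to 101274795, plus strand) encodes NUR77, the nuclear receptor needed to form patrolling monocytes, which is also an immediate early gene in many blood cells. Its rescaled FPKM was 3.45, 2.33 and 4.84 in Ctrl, 6.43, 4.51 and 7.71 in CIA, and 8.33, 7.16 and 8.90 in the CIA+THz libraries. The CIA+THz libraries stood above all Ctrl libraries, whereas CIA replicate 2 lay below Ctrl replicate 3. Nr4a1 rose by 0.82 in CIA against Ctrl (SE 0.33, limma adjusted p = 0.270) and by 1.23 in CIA+THz against Ctrl (SE 0.28, adjusted p = 0.120). The first call was lost without Ctrl replicate 1 or 2, without CIA replicate 1 or 3, with the FPKM as deposited and without the trend in the variance. It was also lost with libraries scaled to the genes outside the red cell precursor list and with every gene above 0 in any library. CIA+THz against CIA was 0.41 with an SE of 0.22 (limma adjusted p = 0.473).

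Of the other surface proteins, Adgre4 was higher in CIA+THz than in Ctrl, and Treml4, Spn and Cd36 did not pass the criterion. Adgre4 (chromosome 17, 55749984 to 55853662, plus strand), an adhesion G protein-coupled receptor related to F4/80, had a rescaled FPKM of 9.79, 6.05 and 10.5 in Ctrl, 14.5, 7.75 and 15.3 in CIA, and 16.0, 13.8 and 17.2 in the CIA+THz libraries. All 3 CIA+THz libraries exceeded all 3 Ctrl libraries. Adgre4 rose by 0.86 in CIA+THz against Ctrl (SE 0.22, limma adjusted p = 0.137). It differed by 0.48 in CIA against Ctrl (SE 0.32) and by 0.38 in CIA+THz against CIA (SE 0.27), neither past the test. On leaving out 1 library, CIA against Ctrl ranged from 0.24 without Ctrl replicate 2 to 0.80 without CIA replicate 2, the latter past the criterion.

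Treml4 (chromosome 17, 48264295 to 48275360, plus strand) encodes a TREM-like receptor that binds dead cells. Its level was 21.5, 30.8 and 37.5 rescaled FPKM in Ctrl, 38.2, 25.5 and 39.7 in CIA, and 38.2, 36.5 and 47.7 in the CIA+THz libraries. The groups overlapped in every pair. The log2 fold changes were 0.21 (SE 0.25), 0.26 (SE 0.20) and 0.47 (SE 0.21) in CIA over Ctrl, CIA+THz over CIA and CIA+THz over Ctrl, and none passed the criterion. Treml4 in CIA+THz against Ctrl passed it with the FPKM as deposited, at 0.78.

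Spn (chromosome 7, 127132232 to 127137823, minus strand) encodes CD43, a sialoglycoprotein that patrolling monocytes carry at a high level and that T cells and neutrophils carry too. It was the most even of the 8, with 37.7, 46.6 and 50.0 rescaled FPKM in Ctrl, 44.0, 40.4 and 45.6 in CIA, and 54.0, 51.0 and 51.0 in the CIA+THz libraries. The CIA+THz libraries were above all others, by a small margin. CIA+THz against CIA was 0.26 (SE 0.09, limma adjusted p = 0.298), with an unadjusted p below 0.05 but under the fold limit, and CIA against Ctrl was -0.04 (SE 0.14). The T cell markers summed to 316 to 369 rescaled FPKM in Ctrl, 262 to 300 in CIA and 318 to 426 in the CIA+THz libraries, and their part in the Spn values was not tested.

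Cd36 (chromosome 5, 17781690 to 17888801, minus strand), a scavenger receptor for oxidised lipids, thrombospondin and fatty acids, was the only member with a lower mean in CIA+THz than in Ctrl. Its level was 62.4, 36.0 and 36.5 rescaled FPKM in Ctrl, 39.4, 19.5 and 29.1 in CIA, and 32.7, 37.3 and 43.5 in the CIA+THz libraries. Ctrl replicate 1, the library with the least Cx3cr1, had the most Cd36. The log2 fold changes were -0.62 between CIA and Ctrl (SE 0.31), 0.41 between CIA+THz and CIA (SE 0.25) and -0.21 between CIA+THz and Ctrl (SE 0.23), and none passed the test. The first ranged from -0.86 without CIA replicate 1, where it passed the criterion, to -0.36 without Ctrl replicate 1 or CIA replicate 2, and the last turned to 0.098 with the FPKM as deposited and to 0.052 without Ctrl replicate 1. Platelets and red cell precursors also carry Cd36. The platelet markers summed to 4677 to 5793 rescaled FPKM in Ctrl, 4454 to 5545 in CIA and 3729 to 4470 in the CIA+THz libraries, and the red cell precursor markers to 69250 to 103900, 87320 to 98020 and 47550 to 65590. Their part was not tested.

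The other 2 members are enzymes. Ace (chromosome 11, 105967945 to 105989964, plus strand) encodes angiotensin-converting enzyme, a peptidase that makes angiotensin II. Its level was 7.33, 4.77 and 9.90 rescaled FPKM in Ctrl, 10.7, 5.86 and 8.14 in CIA, and 12.9, 12.4 and 13.3 in the CIA+THz libraries. The CIA+THz libraries were above every library of the other groups, which overlapped one another. Ace rose by 0.68 in CIA+THz against CIA (SE 0.22, limma adjusted p = 0.289) and by 0.86 against Ctrl (SE 0.25, adjusted p = 0.161), with 0.18 in CIA against Ctrl (SE 0.33). The change against CIA was barely past the fold limit, and it fell under it without CIA replicate 2 (0.46) and with a pseudocount of 1 (0.62), while without CIA+THz replicate 1 or 3 the unadjusted p was above 0.05. Without Ctrl replicate 2 the change against Ctrl was 0.59, below the limit. Endothelium is the other main source of Ace, and its defining gene Cdh5 lay between 0 and 0.256 rescaled FPKM in the 9 libraries, with a mean of 0.151 in Ctrl, 0.0577 in CIA and 0.171 in the CIA+THz libraries. The 7 endothelial genes summed to 269 to 355 in Ctrl, 222 to 338 in CIA and 226 to 255 in the CIA+THz libraries, mostly from Pecam1 and Vwf, which platelets carry too. Their part in the Ace values was not tested. An exon of Gm11651, on the opposite strand, overlaps Ace.

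Eno3 (chromosome 11, 70657202 to 70662513, plus strand) encodes beta-enolase, the glycolytic isoform best known from skeletal muscle. Its level was 5.86, 3.92 and 6.57 rescaled FPKM in Ctrl, 8.66, 6.35 and 6.91 in CIA, and 12.7, 8.48 and 9.89 in the CIA+THz libraries. The CIA+THz libraries were above all Ctrl libraries, and CIA+THz replicate 2 fell below CIA replicate 1. Eno3 rose by 0.93 in CIA+THz against Ctrl (SE 0.24, limma adjusted p = 0.138). It differed by 0.44 in CIA against Ctrl (SE 0.25) and by 0.49 in CIA+THz against CIA (SE 0.20), the latter with an unadjusted p below 0.05 but under the fold limit. Of 9 skeletal muscle markers, 6 stayed below 1 rescaled FPKM in all libraries, among them Ckm, which reached 0.804, and Myh4, at 0 throughout, while Mylpf lay between 2.29 and 6.83. The 9 summed to 5.46 to 7.56 in Ctrl, 5.03 to 6.46 in CIA and 5.02 to 8.73 in the CIA+THz libraries, and their part in the Eno3 values was not tested.

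**Figure D2:**
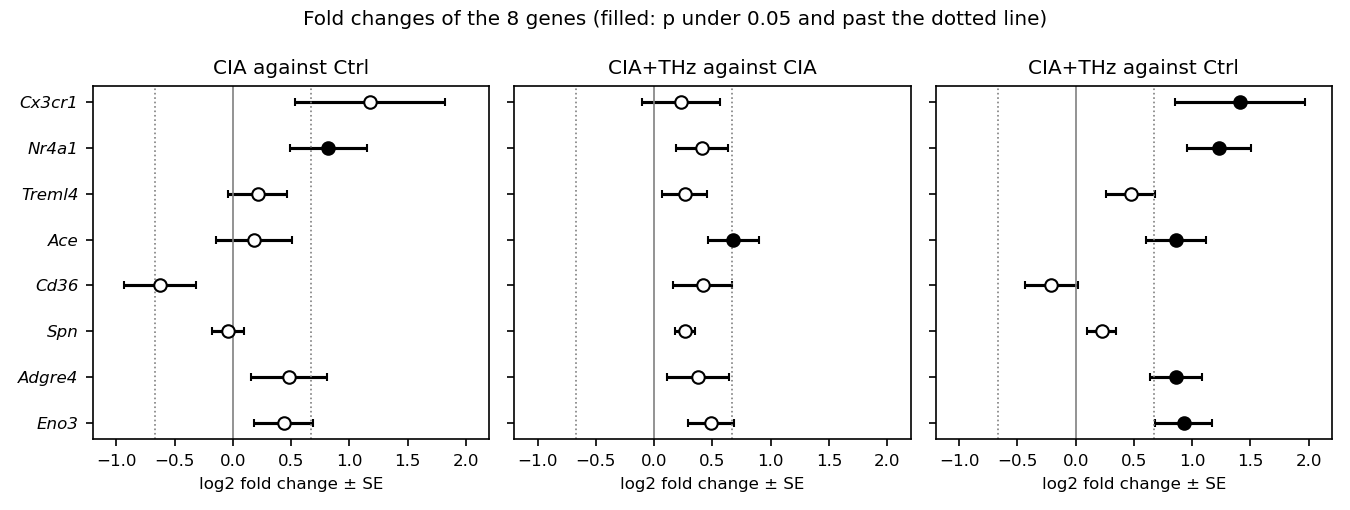
Log2 fold change ± SE of the 8 genes in the 3 comparisons (limma, 6 libraries each), with filled circles for genes past the criterion and dotted lines at the fold limit of 0.67. There are 5 filled circles in CIA+THz against Ctrl and 1 in each of the other panels, and all 8 lie to the right of 0 in CIA+THz against CIA.

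Read against all genes tested, 5 of 8 members were called higher in CIA+THz against Ctrl, where the share was 4.64% of the 12366 genes, and 3.24% were called lower. Cx3cr1, Nr4a1, Ace, Spn, Adgre4 and Eno3, 6 of the 8, were higher with no overlap between the 6 libraries, against 11.9% of all genes. The number called was 3 without Ctrl replicate 2, which left Cx3cr1, Nr4a1 and Eno3. Cx3cr1 also lost its call without any 1 of the CIA+THz libraries and without the trend in the variance. In CIA against Ctrl, 1 of 8 was called higher, against 4.79% of all genes, with 4.25% called lower. None of the 8 was higher with no overlap, against 11.8%. Between CIA+THz and CIA, 1 of 8 was called higher, against 2.94%, with 1.6% called lower, and 2 of 8 (Ace and Spn) were higher with no overlap, against 9.38%. Genes with an adjusted p under 0.05 made up 0.154% in CIA against Ctrl and 0.105% in CIA+THz against Ctrl, and there were none in CIA+THz against CIA, where an unadjusted p below 0.05 was found for 1634 genes.

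Across the 3 groups, limma's moderated F-test called 5 of the 8 at p below 0.05 without adjustment, the same 5 genes as in CIA+THz against Ctrl, against 21.3% of all genes. The smallest p were those of Nr4a1 (limma adjusted p = 0.0811) and Eno3 (adjusted p = 0.114). None of the 8 had an adjusted p under 0.05, which 2.53% of all genes had. The 3 comparisons share libraries, so they are not independent of one another.

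FPKM is per length, so the levels of the 8 genes can be set beside each other. By the mean of the 9 libraries, Spn was the highest at 46.7 rescaled FPKM, followed by Cd36 at 37.4, Treml4 at 35.1, Cx3cr1 at 22.8, Adgre4 at 12.3, Ace at 9.47, Eno3 at 7.70 and Nr4a1 at 5.96. Neighbours in this order overlapped across libraries throughout, and the order of the first 3 changed with the group. The mean of Cd36 (44.97) was above that of Spn (44.77) in Ctrl, and the mean of Treml4 was above that of Cd36 in CIA (34.5 and 29.3) and in CIA+THz (40.8 and 37.8). The CIA+THz mean was the highest of the 3 group means for 7 of the 8 genes, with Cd36 as the exception, and the Ctrl mean was the lowest for 6 of them.

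Within CIA, replicate 2 was the lowest library for 8 of 8 members, while it was the lowest for 33.8% of all genes. Its Csf1r, at 204 rescaled FPKM, was the highest of the CIA libraries. The pan-monocyte genes were lowest there for 7 of 12. CIA replicate 3 was the highest for 5 of 8. In the other groups, CIA+THz replicate 2 was the lowest for 6 of 8 members, against 32.4% of all genes and 9 of 12 pan-monocyte genes. Ctrl replicate 2 was the lowest for 5 of 8, against 33.7% of all genes and 6 of 12 pan-monocyte genes. Replicate 3 was the highest for 7 of 8 in Ctrl and for 5 of 8 in CIA+THz. The share of all genes was not computed for the highest library.

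The level of each member relative to Csf1r in the same library does not depend on the scaling of libraries. Csf1r was listed both among the pan-monocyte genes and among the 25 further patrolling monocyte genes below, so it is not neutral between the subsets. Csf1r itself was 88.3, 89.3 and 108 rescaled FPKM in Ctrl, 192, 204 and 201 in CIA, and 159, 137 and 150 in the CIA+THz libraries. It rose by 1.07 in CIA against Ctrl (SE 0.12, limma adjusted p = 0.0361). Between CIA+THz and CIA its difference was -0.42 (SE 0.09, adjusted p = 0.210), under the fold limit and lower in every CIA+THz library, so that a ratio to Csf1r holds this difference too. Treml4 stood at 24.3%, 34.5% and 34.7% of Csf1r in Ctrl, at 19.8%, 12.5% and 19.8% in CIA, and at 24.0%, 26.6% and 31.7% in the CIA+THz libraries. All CIA libraries lay below all libraries of the other groups. Ace stood at 7.60% ± 2.01 (SD, n = 3) of Csf1r in Ctrl, 4.16% ± 1.35 in CIA and 8.66% ± 0.484 in the CIA+THz libraries. Nr4a1 stood at 3.67% ± 0.960 in Ctrl, 3.13% ± 0.833 in CIA and 5.46% ± 0.400 in the CIA+THz libraries. Cx3cr1 stood at 13.6% ± 8.19 in Ctrl, 13.3% ± 5.86 in CIA and 19.3% ± 2.23 in the CIA+THz libraries.

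**Figure D3:**
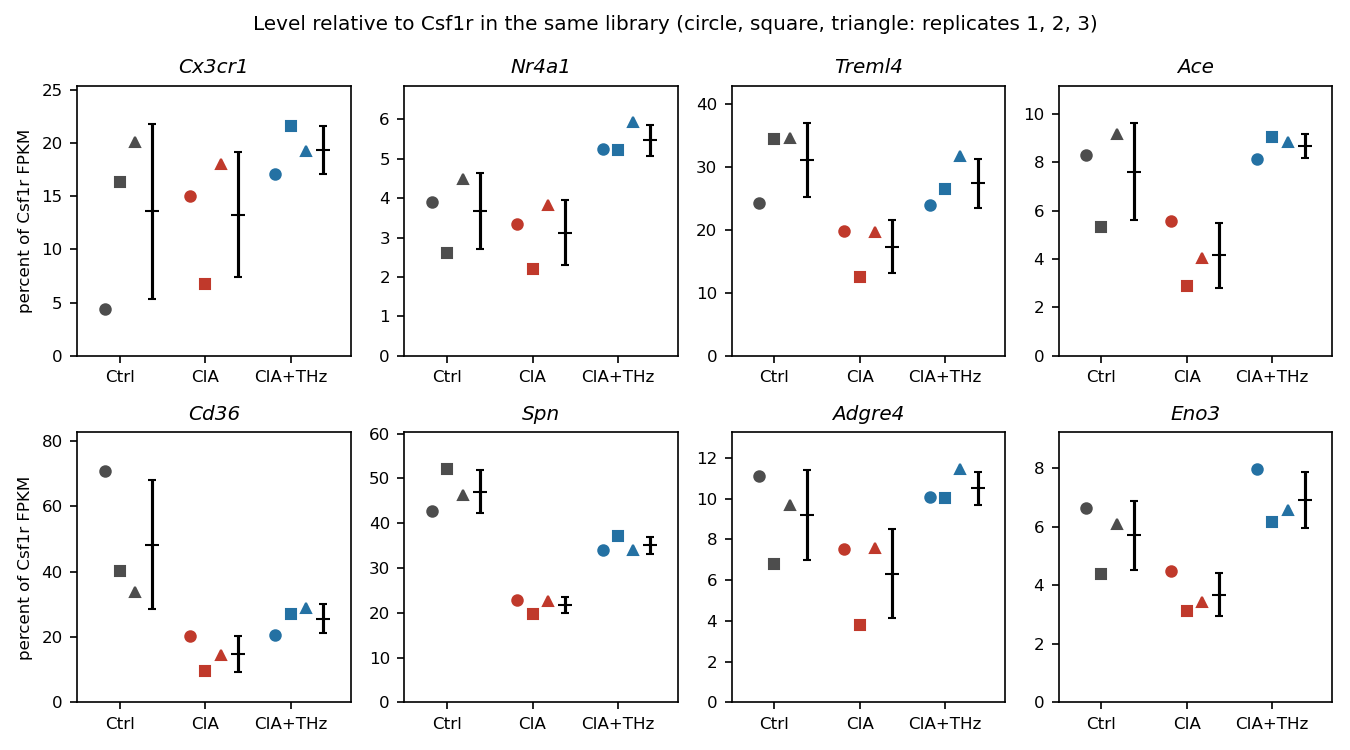
Level of the 8 genes as a percent of the Csf1r FPKM of the same library, by group, with circles, squares and triangles for replicates 1, 2 and 3 and a black bar for the mean ± SD (n = 3). In 7 of the 8 panels all CIA+THz points lie above all CIA points, with Cx3cr1 as the exception.

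Relative to Csf1r, 7 of the 8 members were above CIA in every CIA+THz library, all but Cx3cr1, where 42.6% of the 10306 genes above 0 in all libraries were so. The median log2 difference of the 8 was 0.82. In CIA against Ctrl, 3 of the 8 (Treml4, Cd36 and Spn) were below Ctrl in every library, against 76.0% of those genes, and the median log2 difference was -0.74. Against the mean of the 12 pan-monocyte genes in place of Csf1r, the number above CIA in every CIA+THz library was again 7, against 41.0% of 10295 genes, and the median difference was 0.81. These ratios are given as a description with no test.

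**Figure D4:**
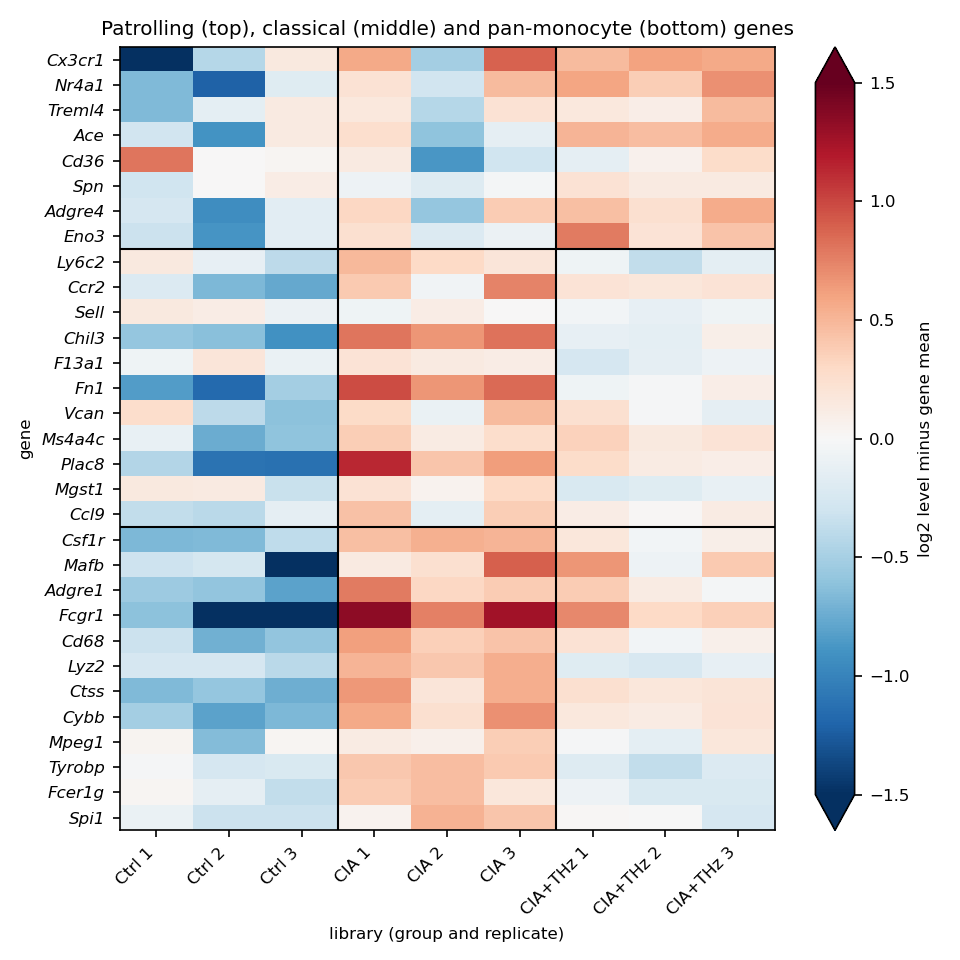
Log2 level of each gene in each library minus the gene's mean over 9 libraries, for the 8 patrolling monocyte genes (top), 11 classical monocyte genes (middle) and 12 pan-monocyte genes (bottom), with colours capped at 1.5 in either direction. The classical and pan-monocyte genes are highest in the CIA columns for most rows, whereas most of the top rows are highest in CIA+THz.

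The classical monocyte genes had another order of groups. Of 11 genes, 5 were called higher in CIA against Ctrl (Ccr2, Chil3, Fn1, Ms4a4c and Plac8) and none lower. Against CIA, 2 were called lower in CIA+THz (Chil3 and Fn1), and all 11 means were lower, with a median of -0.31 against 0.03 for all genes tested and 0.39 for the 8 members. With the FPKM as deposited 6 of these 11 means and 9 of the 12 pan-monocyte means were lower, at a median of 0.29 over all genes. Ly6c2, the gene of the classical marker Ly6C, was 101, 83.8 and 69.2 rescaled FPKM in Ctrl, 128, 112 and 103 in CIA, and 87.1, 70.6 and 82.1 in the CIA+THz libraries. Every CIA library was above every library of the other groups. Ly6c2 differed by 0.45 in CIA against Ctrl and by -0.52 in CIA+THz against CIA. Both had an unadjusted limma p below 0.05 but were under the fold limit, so that it did not pass the criterion in any comparison. Chil3, a chitinase-like protein, rose by 1.47 in CIA against Ctrl (limma adjusted p = 0.0194) and fell by 0.82 in CIA+THz against CIA. Fn1, the gene of fibronectin, rose by 1.67 and fell by 0.82. Against Ctrl, 4 of the 11 were called higher in CIA+THz.

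The ratio of Ly6c2 to Cx3cr1, 1 gene for each subset, was 26.1, 5.76 and 3.20 in Ctrl, 4.42, 8.16 and 2.85 in CIA, and 3.21, 2.38 and 2.83 in the CIA+THz libraries. Ctrl replicate 1, the library with the least Cx3cr1, stood apart from the rest. The log2 ratio differed by -0.75 in CIA+THz against CIA (two-sided exact permutation p = 0.2), by -0.74 in CIA against Ctrl (p = 0.6, exact) and by -1.49 in CIA+THz against Ctrl (p = 0.2, exact). With 3 libraries against 3 the smallest possible p is 0.1. Without Ctrl replicate 1, CIA against Ctrl turned to 0.13 and CIA+THz against Ctrl was -0.62.

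Of 12 pan-monocyte genes, 8 were called higher in CIA and 5 in the CIA+THz libraries against Ctrl, and 1 lower (Tyrobp) in CIA+THz against CIA, where all 12 means were lower at the median-of-ratios scaling. Fcgr1, a high-affinity receptor for antibodies, had the largest of these changes, 2.69 in CIA against Ctrl and 2.03 in CIA+THz against Ctrl.

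Among 25 further genes reported for patrolling monocytes, 4 were called higher and 1 lower in CIA against Ctrl. Between CIA+THz and CIA 2 were called higher, while 15 of the 25 means were lower and the summed level was 1310 to 1425 rescaled FPKM in the CIA+THz libraries and 1664 to 1694 in CIA. Between CIA+THz and Ctrl 6 were called higher and 1 lower. Their median log2 fold change was 0.36, -0.08 and 0.44 in that order. The median of all genes tested was 0.03 between CIA+THz and CIA. There the direction depended on the scaling. With the FPKM as deposited 19 of the 25 means were higher and 6 lower, at a median of 0.20 against 0.29 over all genes. A few genes carried much of the summed level, with the largest CIA means in Pglyrp1 (278.5), Cd9 (254.1) and Csf1r (199.3). The part of other blood cells in this sum was not tested. Apoc2, an activator of lipoprotein lipase, had the largest rise in CIA against Ctrl (1.83), followed by the lectin receptor Clec4a1 (1.43) and Csf1r (1.07). Fabp4, a fatty acid carrier, fell by 1.21 in CIA and was 0.88 higher in CIA+THz against CIA. Lair1, an inhibitory collagen receptor, was 0.71 higher in the same comparison. Against Ctrl, the largest rises in CIA+THz were those of Cd300e (1.93), Apoc2 (1.26) and Clec4a1 (1.16).

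Cebpb, the first of that list, encodes a transcription factor that patrolling monocytes need to survive. It was 59.1, 58.0 and 46.9 rescaled FPKM in Ctrl, 102, 4.57 and 106 in CIA, and 61.6, 2.08 and 1.52 in the CIA+THz libraries, so that 3 libraries of 2 groups stood far below the other 6. It was called lower in CIA+THz against Ctrl by 3.18 on the log2 scale (SE 1.25, limma adjusted p = 0.244), although the groups overlapped. An exon of Tmem189 on the other strand overlaps the Cebpb gene, and Tmem189 lay between 63.8 and 101 in the 9 libraries. How reads were assigned to genes with such a spread was not tested, so the Cebpb values are uncertain. A spread of more than 10-fold within a group was found in 17 of 4195 genes with a mean of at least 10 rescaled FPKM. None of the 8 members was among them.

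Genes of the pathways of the members mostly did not pass the criterion. The ligand Cx3cl1 was at 0 in 8 of the 9 libraries, and of the 5 tested fractalkine axis genes, among them the sheddase Adam10, none was called in any comparison. The other NR4A genes, Nr4a2 and Nr4a3, reached 0.298 and 0.623 rescaled FPKM. The 7 factors tested were of the NR4A, KLF and C/EBP families, with Rxra and Irf8 beside them. Of these, Cebpa was called higher in CIA against Ctrl (0.94) and Cebpb, with the uncertainty given above, lower in CIA+THz against Ctrl. Of 7 genes of the TREM family and its adaptors, Trem2 was called higher in CIA against Ctrl (2.58) and in CIA+THz against Ctrl (1.93). Tyrobp, an adaptor through which some TREM receptors signal, fell by 0.67 in CIA+THz against CIA. Trem1, the first of that list, was between 93.7 and 161. Of 10 genes of angiotensin peptidases and receptors, 3 were tested, and Lnpep, an aminopeptidase, fell by 0.79 in CIA against Ctrl. Agt, the precursor of angiotensin, did not reach 0.1 rescaled FPKM in any library.

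Of 9 genes of the CD36 family and lipid handling, Scarb1, a receptor for high-density lipoprotein, rose in CIA against Ctrl (1.33) and in CIA+THz against Ctrl (1.15), Msr1 rose (0.74) and Fabp4 fell in CIA against Ctrl, and Thbs1, whose protein binds CD36, fell by 0.74 in CIA+THz against Ctrl. Fabp4 was higher in CIA+THz against CIA. None of the 7 CD43 partners, such as moesin (Msn, 376 to 426 rescaled FPKM), was called. Of 5 adhesion receptors related to Adgre4, Adgre1, which encodes F4/80, and Adgrg5 were higher in CIA (1.13 and 0.91) and in CIA+THz (0.80 and 0.77) against Ctrl. The 2 enolases tested beside Eno3 were called in no comparison. Eno1, the common isoform, was 203.6 in Ctrl, 291.6 in CIA and 209.6 in the CIA+THz libraries on average, so that it was not highest where Eno3 was.

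**Figure D5:**
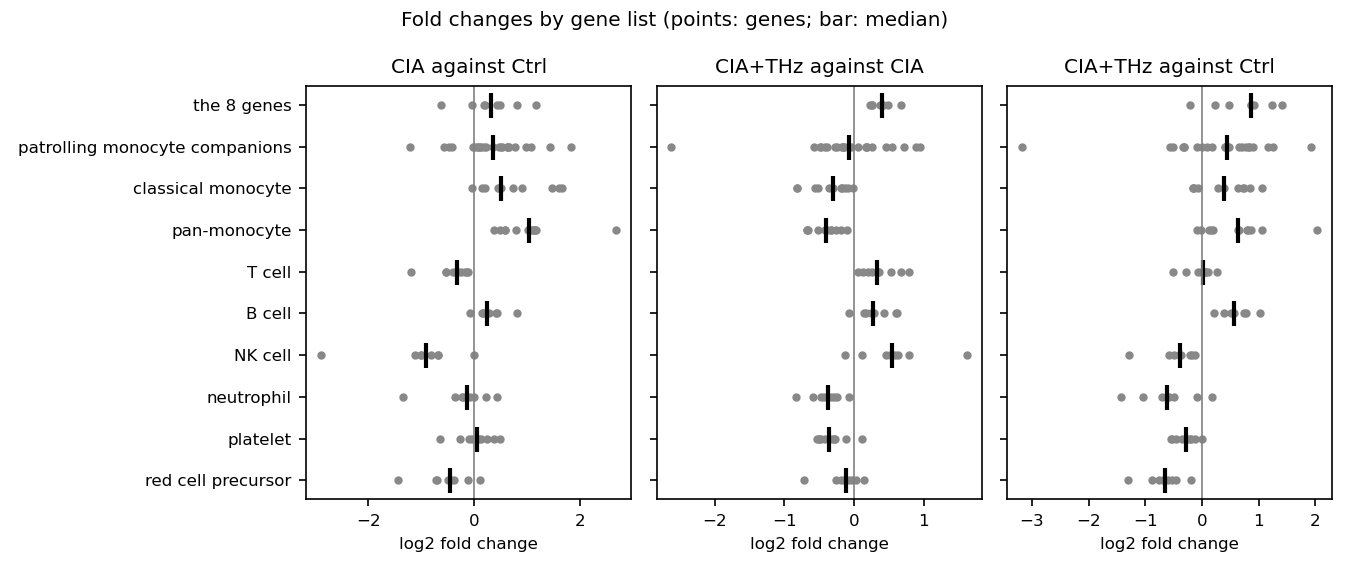
Log2 fold changes (limma) of the 8 genes and of the marker lists of monocyte subsets and other blood cells in the 3 comparisons, with points for genes and a bar for the median of a list. The 8 genes and the T cell, B cell and NK cell lists have medians above 0 in CIA+THz against CIA. The 25 patrolling monocyte companions (-0.08) have a median below 0 there. So do the classical, pan-monocyte, neutrophil, platelet and red cell precursor lists. With the FPKM as deposited (not drawn) the medians of the companions (0.20) and of the red cell precursors (0.16) were above 0, and those of the classical, pan-monocyte, neutrophil and platelet lists stayed below.

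Other cell types moved between the groups too. Of 8 NK cell markers, 4 fell in CIA against Ctrl (Ncr1, Gzma, Prf1 and Klre1) and 2 of them, Prf1 and Klre1, were higher in CIA+THz against CIA, while Klre1 was lower in CIA+THz against Ctrl. Ncr1 lay between 5.20 and 18.1 rescaled FPKM in the 9 libraries. Klre1 was between 2.96 and 4.84 rescaled FPKM in Ctrl, between 0.199 and 1.40 in CIA and between 1.17 and 1.94 in the CIA+THz libraries. Of 10 T cell markers, Cd28 fell by 1.19 in CIA against Ctrl, and Cd28 and Cd5 were 0.68 and 0.79 higher in CIA+THz against CIA, where all 10 means were higher. Of 8 B cell markers, 1 was called higher in CIA and 3 in the CIA+THz libraries against Ctrl. Of 8 neutrophil markers, 1 was lower in CIA and 3 in the CIA+THz libraries against Ctrl, and 1 was lower between CIA+THz and CIA. No platelet marker was called. In CIA+THz against CIA, 9 of 10 platelet means and all 8 neutrophil means were lower, and 7 and 6 of them with the FPKM as deposited. Of 8 red cell precursor markers, 1 was lower in CIA and 4 in the CIA+THz libraries against Ctrl. Of 6 dendritic cell markers tested (the first, Flt3, lay between 0.26 and 2.15 rescaled FPKM), 1 was higher and 2 were lower in CIA, and 2 were lower in CIA+THz, against Ctrl. No endothelial or muscle marker was called. The part of these cells in the values of the 8 members was not tested.

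The genes whose 9 values were most like those of each member were ranked by the root mean square difference of log2 levels, each centred on the gene's own mean, over 9747 other genes with a mean of at least 1. For Nr4a1 they were Zfyve9 (0.17), Grk3 (0.17) and Adgre4 (0.21), for Ace they were Ggta1 (0.20), Eno3 (0.21) and Adgre4 (0.22), for Adgre4 they were Atp6v1h (0.15), Entpd6 (0.18) and Ggta1 (0.18), and for Eno3 they were Armc5 (0.21), Ace (0.21) and 9030025P20Rik (0.21). Nr4a1, Ace and Eno3 thus had another member among the 3 nearest genes. For Treml4 they were Psma5 (0.13), Psma4 (0.14) and 2610001J05Rik (0.14), for Spn they were Nsun2, Arhgef3 and Bicra (0.08 to 0.09), and for Cd36 they were Impad1, Kpna1 and Ap3m1 (0.12 to 0.14). For Cx3cr1, whose own spread was the largest, they were Pop5 (0.33), Lig4 (0.35) and Wdr53 (0.39). Between members the closest pair was Nr4a1 and Adgre4 (0.21) and the most distant Cx3cr1 and Cd36 (1.17).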

How the data were processed

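The authors deposited 1 FPKM value per gene and library. The submitters' processing notes name bcl2fastq 2.0, HISAT2, StringTie and DESeq2 and the build mm10, and the strand setting, filters and read totals are not given in the sources used here. FPKM were rescaled with a factor for each library (0.847 to 1.24), the median of its ratios to the geometric mean of the 10312 genes with a value in every library. Log2(rescaled FPKM + 0.1) of 12366 genes was fitted with limma 3.58.1 in R 4.3.3 (eBayes with a trend on the mean), each pair of groups on its 6 libraries. Fold changes are on this log2 scale and understate the change of low genes. No count test was run, since the values are FPKM. The fit was tested on simulated data. Ratios, sums and the likeness ranking were computed in Python 3.11.15.

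The members and the gene lists were chosen with earlier results of these data known. Named from each list were the first gene and, per comparison, the called genes of largest change, at most 4 for a list. Adam10, Nr4a3, Myh4, Mylpf, Pecam1, Vwf, Agt and Tmem189 were named after their values were seen. Replicates were taken as different mice. Coordinates are those of GENCODE M21 on GRCm38, matched by symbol. Alternatives were other scalings, pseudocounts, filters and fits, and leaving out each library. Some items of the lists are not reported here.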

Additional observations from a re-analysis of the deposited data

How the results depend on the processing

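The 5 members called in CIA+THz against Ctrl kept their direction under every alternative tried. Members called in CIA against Ctrl numbered 1, and 0 with the FPKM as deposited, with each library scaled to the genes outside the red cell precursor list, with every gene above 0, without the trend and at an adjusted p under 0.05, 2 with all 3 groups in one fit, and 0 to 2 on leaving out 1 library. For CIA+THz against CIA the number was 1, and 4 and 3 under the other 2 scalings, 0 with a pseudocount of 1 or an adjusted p, and 0 to 1 on leaving out 1 library. For CIA+THz against Ctrl it was 5, 6 under both other scalings, and 4 with every gene above 0 or without the trend. In that comparison it was 0 at an adjusted p and 3 to 5 on leaving out 1 library. Across the groups it was 5, 8 under both other scalings, 3 without the trend, 0 at an adjusted p, and 2 to 5 on leaving out 1 library. Genes called numbered 1118, 561, 975 and 2629 in the same order, and 19, 0, 13 and 313 at an adjusted p. With the FPKM as deposited the second and the third were 1192 (1126 higher, against 363) and 1716 (1596 higher, against 574), outside the red cell precursors 1133 (1060 higher) and 1506 (1366 higher), and the second was 283 with a pseudocount of 1. The third was 724 to 1487 on leaving out 1 library.

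Some signs turned. On leaving out 1 library, CIA against Ctrl ranged from -0.0068 to 0.42 for Treml4, from -0.090 to 0.43 for Ace and from -0.16 to 0.046 for Spn, CIA+THz against CIA from -0.18 to 0.52 for Cx3cr1, and CIA+THz against Ctrl from -0.34 to 0.052 for Cd36, which was 0.098 as deposited and 0.054 outside the red cell precursors. The log2 ratio of Ly6c2 to Cx3cr1 ranged from -1.39 to 0.13 in CIA against Ctrl. The alternatives for that ratio and for the ratio to Csf1r were chosen after seeing the data. The cause of these changes was not tested, and 3 libraries per group limit the precision. With the replicate number as a block (replicate block), members called were 1, 1, 5 and 5 and genes 1073, 506, 967 and 2399. Replicate numbers pair no animals, and deviations of same-numbered libraries correlated between -0.052 and 0.031.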
